A study of Mus musculus with 12 samples.

Results

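Homeobox genes encode transcription factors that bind DNA through a conserved domain. On arrays, 91 genes named after homeobox families were followed across an osteocyte line and an osteoblast line. Members were taken by a rule on gene symbols, which was set with earlier results of these data known. A spot was taken when its single symbol, updated by Entrez ID, begins with the family name Hox, Dlx, Msx, Barx, Pax, Pitx, Lhx, Nkx, Meis, Pbx, Tlx, Alx, Prrx, Emx, Gbx, Irx, Cdx, Otx, Tgif, Cux or Pou or with the stem of Six2, and Dlx3, Dlx5 and Msx2 were left out. The 91 genes, 1 spot each, were 1.98% of the 4605 named genes on the array and came from 20 of these families. Pou2af1 meets the rule by its name but encodes a coactivator of Pou factors and not a homeodomain protein. The other members were not checked for a homeodomain.

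Total RNA of 2 mouse cell lines was measured on 12 arrays, 3 in each of 4 groups. MLO-Y4 high and MLO-Y4 low are cultures of an osteocyte line, which came from a mouse carrying T antigen under the osteocalcin promoter. 2T3 C0 and 2T3 low are cultures of an osteoblast line, which came from a mouse carrying the SV-40 T antigen under the BMP-2 promoter. The labels contrast osteocytes with and without gap junctions, and confluent with low-density osteoblasts. High was read as the state with gap junctions and C0 as confluency only because the other group of each line is called low. No age, strain or added agent is given, and all groups carry a transforming antigen. Each cell type is 1 line, so cell type, line, source mouse and skeletal site cannot be told apart. Nothing says that the arrays of a group came from separate cultures, so a p-value here weighs a difference only against the scatter of these arrays, part of which may be technical.

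Hox genes lie in 4 clusters. Their paralogue numbers follow their order along the chromosome and, in the embryo, the order of their use from head to tail and from the body towards the tip of the limb. Dlx, Alx, Barx, Msx, Six2 and Prrx genes are known from mesenchyme of the face, skull and limb. Meis, Pbx and Tgif proteins share an extended homeodomain; Meis and Pbx bind DNA beside Hox proteins, and Tgif1 acts as a corepressor. As background from the field, 2T3 was isolated from calvaria, the roof of the skull, and MLO-Y4 from long bone, and Hox genes are known to be largely silent in the skull and in use in limb bones.

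The windows of 250 bases before the RefSeq gene start (GRCm38.p6, read 5′ to 3′ along the gene) are shown for Six2 and Barx1, taken as line markers, and for Dlx2 and Hoxa5, called genes with 1 listed start. Readings of Barx1 overlapped between the lines. Capitals mark TGACAG, the hexamer known to be bound by Meis and Tgif proteins, on either strand.
Six2, chr17:85688255-85688504, minus strand: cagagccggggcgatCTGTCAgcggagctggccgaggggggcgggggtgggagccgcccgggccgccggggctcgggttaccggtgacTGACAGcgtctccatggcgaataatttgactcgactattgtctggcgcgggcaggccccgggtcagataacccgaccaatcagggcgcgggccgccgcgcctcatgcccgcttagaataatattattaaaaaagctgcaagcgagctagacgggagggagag
Barx1, chr13:48662786-48663035, plus strand: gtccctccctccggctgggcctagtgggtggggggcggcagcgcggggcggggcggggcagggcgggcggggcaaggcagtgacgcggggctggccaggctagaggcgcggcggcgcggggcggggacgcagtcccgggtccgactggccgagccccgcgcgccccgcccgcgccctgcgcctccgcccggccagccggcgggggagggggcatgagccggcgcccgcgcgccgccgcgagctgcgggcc
Dlx2, chr2:71546755-71547004, minus strand: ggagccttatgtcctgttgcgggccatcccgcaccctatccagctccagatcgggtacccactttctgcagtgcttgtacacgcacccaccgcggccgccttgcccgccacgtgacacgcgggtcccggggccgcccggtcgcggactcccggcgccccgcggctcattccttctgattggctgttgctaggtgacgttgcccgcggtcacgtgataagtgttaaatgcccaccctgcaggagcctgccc
Hoxa5, chr6:52204588-52204837, minus strand: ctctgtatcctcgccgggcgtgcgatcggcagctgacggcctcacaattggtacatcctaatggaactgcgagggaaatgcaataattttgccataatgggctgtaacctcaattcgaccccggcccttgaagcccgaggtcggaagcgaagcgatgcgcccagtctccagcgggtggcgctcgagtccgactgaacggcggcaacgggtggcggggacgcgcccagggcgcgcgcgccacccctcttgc
Six2 held 2 copies of TGACAG in this window and the other windows shown held none. Of the 85 windows listed for 69 of the 91 genes, 14 (16.5%) held at least 1 copy, against 15.9% of all 32851 RefSeq windows of this length. Six2 was the only member with 2 or more, which 1.64% of all windows held. The homeodomain core TAATTA, the same on both strands and unable to overlap TGACAG, was in 3 member windows (3.53%) and in 4.84% of all windows. Member windows had medians of 60.8% G and C and 14 CpG, against 52.4% and 6 over all windows. A match is a run of letters and says nothing of binding.

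Many of the genes read close to background. A spot was called detected on an array when its deposited value exceeded that array's most negative value in size. Of the 91 genes, 10 were detected on all 12 arrays (10.99%, against 24.9% of all 5030 spots). On no array were 8 detected (8.79%, against 5.59%), namely Pax3, Pax9, Lhx1, Meis1, Msx1, Hoxb13, Hoxd3 and Pou2af1. On all 3 arrays of a group, 18 were detected in MLO-Y4 high and 22 in MLO-Y4 low, against 31 in 2T3 C0 and 40 in 2T3 low. The counts depended on replicate 1 in all groups but 2T3 low, and without replicate 1 the counts were 47 in MLO-Y4 high and 43 in MLO-Y4 low, against 53 in 2T3 C0 and 42 in 2T3 low. With all arrays the whole array leaned the same way, with 33.4% of spots detected in MLO-Y4 high and 34.6% in MLO-Y4 low, against 50.3% in 2T3 C0 and 45.2% in 2T3 low. No member was detected on all 6 arrays of 1 line and on none of the other. Fewer cells that express a gene and less RNA per cell cannot be told apart in such samples.

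**Figure D1:**
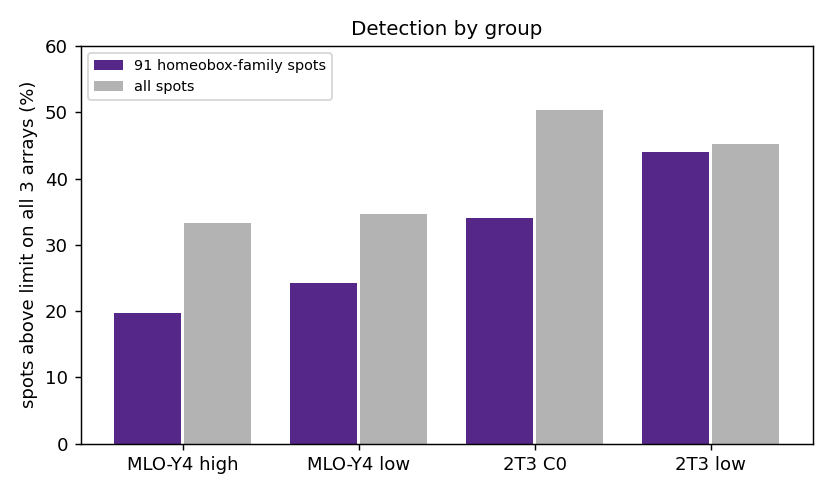
Share of spots above the detection limit on all 3 arrays of a group, in percent, for the 91 homeobox-family spots (purple bars) and for all spots (grey bars). The homeobox share is 19.8% in MLO-Y4 high and 24.2% in MLO-Y4 low, against 34.1% in 2T3 C0 and 44.0% in 2T3 low. Without replicate 1 the member counts of MLO-Y4 high and MLO-Y4 low were 47 and 43, both above the 42 of 2T3 low.

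Arrays differed in brightness and kind. Median intensity ran from 4 to 55, and between 37.9% and 74.8% of spots were detected, fewest on MLO-Y4 high and low replicate 1. Values were quantile normalized, floored at 6.08 and taken to log2, and levels below are normalized intensities, with group means taken on the log2 scale. The lowest detected normalized value differed between arrays. It was 47.8 on MLO-Y4 high replicate 1, 47.2 on MLO-Y4 low replicate 1 and 25.1 on 2T3 low replicate 3, but 6.17 on 2T3 low replicate 1. A level can thus be detected on 1 array while a higher level is undetected on another. Over spots detected on all 12 arrays the median difference of MLO-Y4 minus 2T3 was then 0.04 in log2, against 0.79 with equal array medians and -0.07 with arrays scaled on their detected spots. Arrays numbered 1 stood apart in 3 groups. In MLO-Y4 high, MLO-Y4 low and 2T3 C0 alike, 12 of the 91 genes (13.2%, against 4.67% of all spots) read at least 2 log2 units lower on replicate 1 than on the mean of replicates 2 and 3. These were Barx2, Cdx1, Cux1, Dlx4, Hoxa2, Hoxb9, Lhx3, Lhx4, Meis3, Nkx2-6, Pou2f3 and Pou3f4. In 2T3 low, which did not enter that choice, their gap ran from -1.85 to 2.70. No member had such a gap the other way in all 3 of these groups at once, though some did within 1 group. The part of arrays numbered 1 in the results was not tested, and values without the 4 arrays numbered 1 are given where they end a call.

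The first comparison asked which homeobox genes set the osteocyte line apart from the osteoblast line over both densities. Hoxc10, Hoxa5 and Tgif1 were higher in MLO-Y4, and Six2, Dlx2, Alx4, Barx1 and Meis2 were lower, at an adjusted p of at most 0.05 in limma. These were 8 of the 91 genes (8.79%, against 9.3% of all spots), 3 higher (background 5.83%) and 5 lower (background 3.48%). The share called was thus near that of the whole array. Without 2T3 C0 replicate 3 or without 2T3 low replicate 3, 5 were called, and the share of all spots is not given for these fits. The median difference was -0.16 over the 91 genes and -0.03 over all spots. For 5 genes (5.49%, against 5.84% of spots) the arrays of the lines did not overlap, namely Hoxc10, Tgif1, Six2, Dlx2 and Alx4. With equal medians 4 members were called higher and 4 lower, beside 414 and 94 of all spots. With detected-spot scaling 3 members were called higher and 6 lower, beside 240 and 308 of all spots. Of all calls on the array, 62.6% were higher in MLO-Y4, against 81.5% with equal medians and 43.8% with detected-spot scaling.

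**Figure D2:**
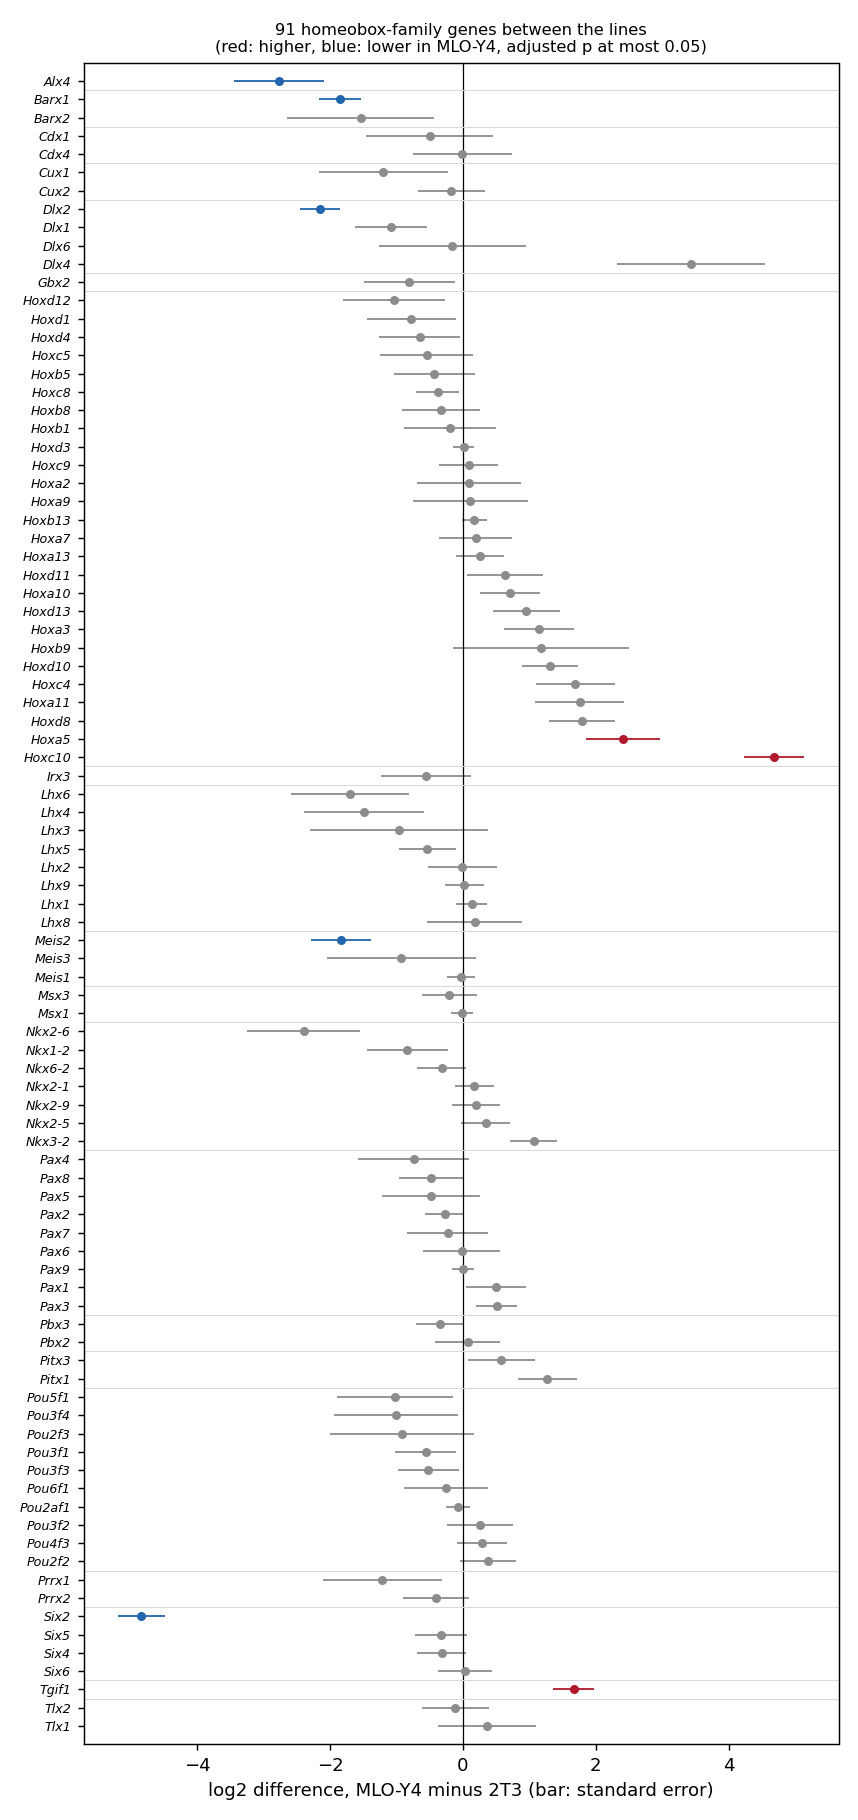
Log2 difference of normalized intensity, MLO-Y4 (6 arrays) minus 2T3 (6 arrays), for each of the 91 genes by family, with the standard error of the fit as a bar; red and blue points passed the test and grey ones did not. Hoxc10 at 4.69 and Six2 at -4.84 lie outside the span of the other members.

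Six2, which keeps kidney progenitors undifferentiated and is also used in face and skull mesenchyme, was low in MLO-Y4 and high in 2T3. It read 11.8, 20.5 and 19.2 in MLO-Y4 high and 37.2, 8.83 and 13.8 in MLO-Y4 low, against 704, 462 and 503 in 2T3 C0 and 475, 412 and 359.9 in 2T3 low. Every 2T3 array lay far above every MLO-Y4 array. It was detected on 3 of 6 MLO-Y4 arrays and on 6 of 6 2T3 arrays. In the fit over all arrays Six2 was 28.6-fold lower in MLO-Y4 (log2 -4.84, SE 0.35, adjusted p = 1.95e-05 in limma; lower on 6 of 6 arrays), and for replicate numbers 1, 2 and 3 the difference was -4.79, -5.02 and -4.71. Six2 passed at both densities in limma, with -4.64 (SE 0.50, adjusted p = 5.68e-04) at low density and -5.04 (SE 0.50, adjusted p = 3.89e-04) in the denser cultures, which differed by -0.39 (SE 0.70, adjusted p = 1). The other family members did not pass. Six5, which was detected on all 12 arrays, differed by -0.34 (SE 0.39, adjusted p = 0.708), Six4 by -0.32 (SE 0.37, adjusted p = 0.704) and Six6 by 0.03 (SE 0.41, adjusted p = 0.989).

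Barx1, known from mesenchyme of the jaw, the molar teeth and the stomach, was detected on 0 of 6 MLO-Y4 arrays and on 5 of 6 2T3 arrays. It read 11.8, 6.08 and 6.08 in MLO-Y4 high and 6.08, 6.58 and 6.33 in MLO-Y4 low, against 74.8, 45.2 and 58.7 in 2T3 C0 and 10.4, 19.2 and 6.08 in 2T3 low. Only 2T3 C0 stood clear of the other groups, and 2T3 low overlapped MLO-Y4. In the denser cultures Barx1 was at least 2.68-fold lower in MLO-Y4 high (means 7.58 in MLO-Y4 high and 58.3 in 2T3 C0, adjusted p = 0.00582 in limma). Over both densities it was at least 1.16-fold lower (means 6.93 in MLO-Y4 and 24.95 in 2T3, adjusted p = 0.00496). Both calls ended without the 4 arrays numbered 1 (log2 -3.18, adjusted p = 0.0755, and log2 -2.02, adjusted p = 0.0545), beside fitted log2 differences of -2.95 and -1.85 with all arrays. At low density it did not pass, with means of 6.33 in MLO-Y4 low and 10.7 in 2T3 low (adjusted p = 0.513). Its relative Barx2 differed by -1.54 (SE 1.10, adjusted p = 0.498) and is among the genes that read low on arrays numbered 1.

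Dlx2, a gene of the first pharyngeal arch and the jaw, was detected on all 12 arrays. It read 129, 111 and 108 in MLO-Y4 high and 67.6, 170.3 and 65.7 in MLO-Y4 low, against 512, 869 and 449 in 2T3 C0 and 306, 367 and 398 in 2T3 low. The lines did not overlap. Dlx2 was 4.44-fold lower in MLO-Y4 (log2 -2.15, SE 0.30, adjusted p = 0.00148 in limma; -2.08, -2.04 and -2.33 for replicate numbers 1, 2 and 3), and with equal medians the difference was -1.43 (adjusted p = 0.0451). It passed at low density (log2 -1.96, SE 0.42, adjusted p = 0.0291), where the call was lost in 5 of 12 fits without 1 array (adjusted p up to 0.103), namely those without any 2T3 low array and without MLO-Y4 low replicates 1 and 3. It also passed in the denser cultures (log2 -2.34, SE 0.42, adjusted p = 0.0130), where the call was lost without 2T3 C0 replicate 2 and without MLO-Y4 high replicate 3 (adjusted p up to 0.0582). Without the 4 arrays numbered 1 the log2 difference was -1.84 (adjusted p = 0.169) at low density and -2.50 (adjusted p = 0.103) in the denser cultures.

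The other Dlx genes did not pass. Dlx1 differed by -1.08 (SE 0.55, adjusted p = 0.304) and Dlx6 by -0.16 (SE 1.11, adjusted p = 0.963). Dlx4 had the largest positive difference of the members not called (log2 3.44, SE 1.12, adjusted p = 0.0942). It read 34.6, 582 and 835 in MLO-Y4 high and 14.2, 564 and 604 in MLO-Y4 low, against 6.08, 42.7 and 20.9 in 2T3 C0 and 18.5, 35.9 and 14.1 in 2T3 low. Both MLO-Y4 arrays numbered 1 lay among the 2T3 arrays, and the other 4 MLO-Y4 arrays lay above all 2T3 arrays. Without the 4 arrays numbered 1 its difference was 4.62 (adjusted p = 0.00805).

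Alx4, a gene of skull-vault and limb mesenchyme, was lower in MLO-Y4. It read 39.8, 165 and 308 in MLO-Y4 high and 60.3, 448 and 360.4 in MLO-Y4 low, against 602, 917 and 2149.6 in 2T3 C0 and 2072, 617 and 1276 in 2T3 low. The lines did not overlap, and replicate 1 was the lowest array of each MLO-Y4 group. The difference was 6.79-fold (log2 -2.76, SE 0.68, adjusted p = 0.0291 in limma), and it was -4.51, -1.47 and -2.31 for replicate numbers 1, 2 and 3. The call was lost in 6 of 12 fits without 1 array (adjusted p up to 0.0757), those without replicate 1 of MLO-Y4 high, MLO-Y4 low or 2T3 low, without 2T3 C0 replicate 2 or 3 and without 2T3 low replicate 3. With equal medians the adjusted p was 0.0652, and without the 4 arrays numbered 1 the log2 difference was -1.86 (adjusted p = 0.0717). Prrx1, which marks limb and face mesenchyme, differed by -1.22 (SE 0.89, adjusted p = 0.512) and Prrx2 by -0.41 (SE 0.50, adjusted p = 0.725), and neither passed.

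Meis2, which encodes a partner of Hox and Pbx proteins, was detected on 1 of 6 MLO-Y4 arrays and on 5 of 6 2T3 arrays. It read 6.08, 6.08 and 21.2 in MLO-Y4 high and 6.08, 6.08 and 6.08 in MLO-Y4 low, against 45.8, 38.3 and 49.7 in 2T3 C0 and 6.08, 23.4 and 30.3 in 2T3 low. 2T3 low replicate 1, at the floor, was the array that broke the separation of the lines. Meis2 was lower in MLO-Y4 (log2 -1.84, SE 0.45, adjusted p = 0.0296 in limma), but the call was lost in 10 of 12 fits without 1 array, all but those without MLO-Y4 high replicate 3 and without 2T3 low replicate 1 (adjusted p up to 0.0695). Its fold was 3.59 with all arrays and 5.41 without 2T3 low replicate 1. Without the 4 arrays numbered 1 the log2 difference was -2.13 (adjusted p = 0.0612). Meis3 differed by -0.93 (SE 1.13, adjusted p = 0.723), Pbx3 by -0.35 (SE 0.35, adjusted p = 0.651) and Pbx2 by 0.07 (SE 0.49, adjusted p = 0.960), and none passed.

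Tgif1, a corepressor of Smad and retinoid signalling, was detected on all 12 arrays. It read 739, 261 and 451 in MLO-Y4 high and 586, 349.8 and 481 in MLO-Y4 low, against 197, 158 and 156 in 2T3 C0 and 189.6, 95.2 and 96.2 in 2T3 low. The lowest MLO-Y4 array lay above the highest 2T3 array. Tgif1 rose 3.18-fold in MLO-Y4 (log2 1.67, SE 0.31, adjusted p = 0.00796 in limma), by 1.77, 1.30 and 1.93 for replicate numbers 1, 2 and 3. At low density it passed (log2 1.94, SE 0.44, adjusted p = 0.0381), but 8 of 12 fits without 1 array lost the call (adjusted p up to 0.133), namely those without any 1 MLO-Y4 low array and those without 2T3 low replicate 2 or 3, 2T3 C0 replicate 2 or 3, or MLO-Y4 high replicate 3. In the denser cultures it did not pass (log2 1.39, SE 0.44, adjusted p = 0.144), but with the replicate number as a block it did (adjusted p = 0.0468).

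**Figure D3:**
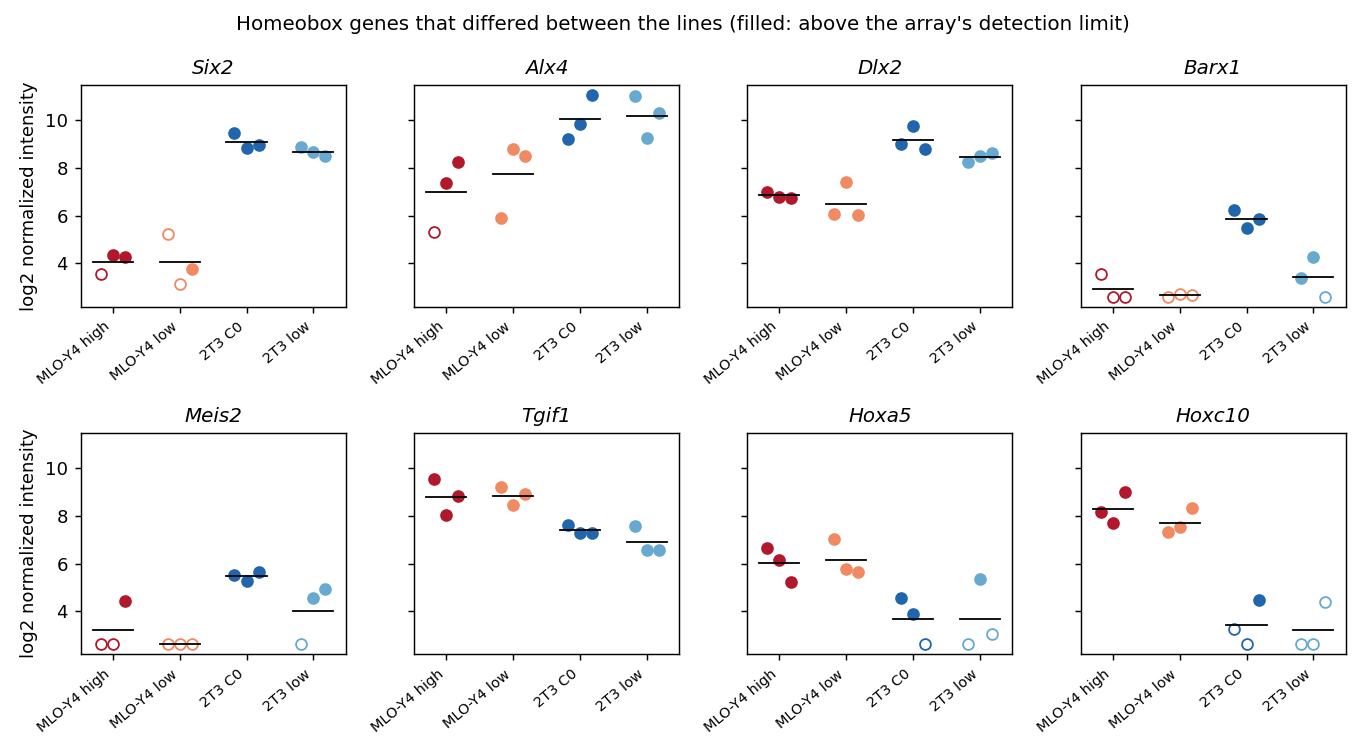
Log2 normalized intensity of the 8 called genes on each of the 12 arrays by group, with lines for group means; filled points were above and open points at or below the array's detection limit. Six2 and Hoxc10 show wide gaps between the lines, and Barx1 is above the limit on all 3 arrays in 2T3 C0 alone.

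Hox genes made up 26 of the 91. Of these, 2 were higher in MLO-Y4, Hoxc10 and Hoxa5, and 0 were lower, where 5.83% of all spots were higher and 3.48% lower. Hoxc10, a posterior gene of the lower spine and hindlimb, was detected on 6 of 6 MLO-Y4 arrays and on 1 of 6 2T3 arrays. It read 287, 210.4 and 508 in MLO-Y4 high and 158, 186 and 318 in MLO-Y4 low, against 9.50, 6.08 and 22.0 in 2T3 C0 and 6.08, 6.08 and 21.0 in 2T3 low. No 2T3 array came near the lowest MLO-Y4 reading. In the fit over all arrays, most 2T3 readings being below the limit, MLO-Y4 exceeded 2T3 by 25.7-fold (log2 4.69, SE 0.45, adjusted p = 1.51e-04 in limma), with 4.81, 5.03 and 4.23 for replicate numbers 1, 2 and 3. At low density, where no 2T3 array detected it, it was at least 17.7-fold higher (means 211 in MLO-Y4 low and 9.19 in 2T3 low, adjusted p = 0.00334), and the fitted fold of 22.9, which is no bound, was 34.6 without 2T3 low replicate 3. In the denser cultures the fitted difference was 28.9-fold (log2 4.85, SE 0.64, adjusted p = 0.00235), with 2T3 C0 replicate 3 the only array of its group above the limit. Without that array the fitted fold was 43.8, set against readings that were all below the limit. Both calls within a density ended without the 4 arrays numbered 1 (log2 4.46, adjusted p = 0.102 at low density, and log2 4.85, adjusted p = 0.0930 in the denser cultures).

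Hoxa5, known for patterning the neck and chest and for lung development, was detected on 6 of 6 MLO-Y4 arrays and on 3 of 6 2T3 arrays. It read 100.5, 71.2 and 37.2 in MLO-Y4 high and 131, 53.8 and 50.2 in MLO-Y4 low, against 23.4, 14.7 and 6.08 in 2T3 C0 and 6.08, 40.9 and 8.25 in 2T3 low. 2T3 low replicate 2 overlapped the MLO-Y4 arrays and the other 2T3 arrays did not. MLO-Y4 exceeded 2T3 by 5.30-fold (log2 2.40, SE 0.56, adjusted p = 0.0224 in limma). The call was lost in 5 of 12 fits without 1 array (adjusted p up to 0.0598), those without replicate 1 of MLO-Y4 high, MLO-Y4 low or 2T3 low, without 2T3 C0 replicate 3 and without 2T3 low replicate 3. Without the 4 arrays numbered 1 the log2 difference was 2.07 (adjusted p = 0.154).

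Over the 26 Hox genes the median was 0.18 with 18 above 0, against 0.56 and 20 with equal medians, and -0.02 and 13 with detected-spot scaling, so the lean turned with the scaling. By paralogue number, the median was 0.01 for numbers 1 to 4 (4 of 7 above 0), -0.33 for 5 to 8 (3 of 7) and 0.67 for 9 to 13 (11 of 12). Of all 5030 spots, 2387 were above 0, and Hoxb13, detected on no array, counts among the 11. The median for 9 to 13 was 0.88 (11 of 12) with equal medians, where spots detected on all 12 arrays had a median of 0.79. It was 0.21 (8 of 12) with detected-spot scaling. For numbers 5 to 8 equal medians gave 0.32, and for numbers 1 to 4 detected-spot scaling gave -0.40, both of the opposite sign. These are descriptions and were not tested.

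**Figure D4:**
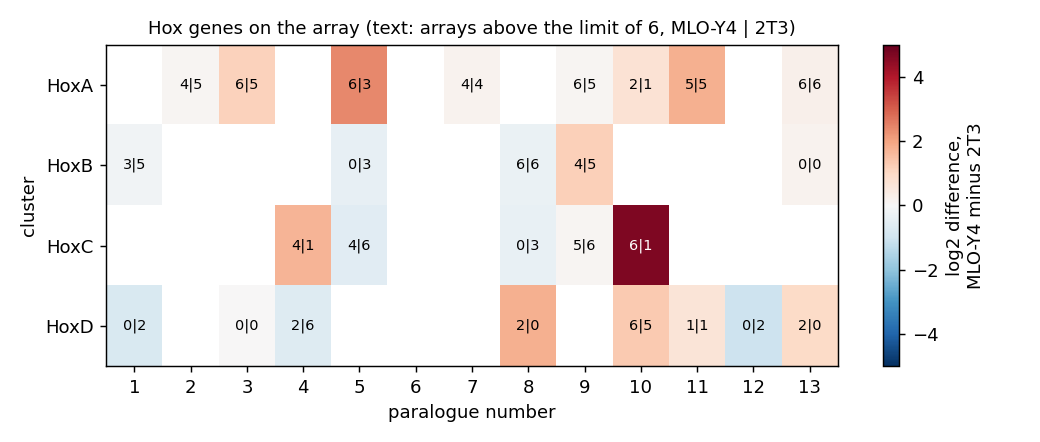
Hox genes by cluster (rows) and paralogue number (columns), coloured by the log2 difference MLO-Y4 minus 2T3, with the arrays above the detection limit out of 6 for MLO-Y4 and then 2T3 as text. Squares without text are positions with no member, whether or not a gene of that name exists, and Hoxc10, with 6 and 1 arrays, is the darkest square.

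Several Hox genes stopped short of the threshold. Hoxd8 lay just outside it, with detection on 2 of 6 MLO-Y4 arrays and on 0 of 6 2T3 arrays (means 21.5 in MLO-Y4 and 6.21 in 2T3, adjusted p = 0.0510), and Meis2 lay just inside it. Hoxd10 differed by 1.31 (SE 0.42, adjusted p = 0.0921), Hoxa11, a gene of the forearm and lower leg, by 1.76 (SE 0.67, adjusted p = 0.156), and Hoxc4 by 1.69 (SE 0.60, adjusted p = 0.125). In the denser cultures Hoxd10 averaged 62.4 in MLO-Y4 high and 17.3 in 2T3 C0 without overlap (adjusted p = 0.155). 2T3 was not without Hox signal. Hoxa13, the gene at the posterior end of its cluster and used in the hand and foot, was detected on all 12 arrays and read 227, 96.0 and 325 in MLO-Y4 high and 195, 139.7 and 251 in MLO-Y4 low, against 119.9, 181 and 168 in 2T3 C0 and 154, 278 and 108 in 2T3 low. The lines overlapped, and the difference was 0.25 (SE 0.36, adjusted p = 0.769). Hoxb8, also detected on all 12, averaged 276 in MLO-Y4 high and 294 in MLO-Y4 low, against 361 in 2T3 C0 and 354 in 2T3 low, and differed by -0.33 (SE 0.59, adjusted p = 0.823).

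The remaining families had no member called in the main fit, which used quantile normalization, all arrays and neither block nor array weights. Over both densities Nkx2-6 passed with the replicate block (adjusted p = 0.00674 in limma) and Pou3f1 with detected-spot scaling (0.0422). Nkx3-2 passed with array weights (0.0119) and without the 4 arrays numbered 1 (0.0428). It also passed without MLO-Y4 high replicate 3 and without MLO-Y4 low replicate 1. Cdx1, an intestinal and trunk gene that acts on Hox genes, averaged 1489 in MLO-Y4 high and 1298 in MLO-Y4 low, against 1637 in 2T3 C0 and 2355 in 2T3 low (log2 -0.50, SE 0.96, adjusted p = 0.838). Its relative Cdx4 differed by -0.01 (SE 0.75, adjusted p = 1). Nkx2-6, a gene of the heart and pharynx, averaged 384 in MLO-Y4 high and 318 in MLO-Y4 low, against 1064 in 2T3 C0 and 3201 in 2T3 low (log2 -2.40, SE 0.85, adjusted p = 0.127). Both are among the genes that read low on arrays numbered 1. At low density Nkx2-6 differed by -3.33 (SE 1.21, adjusted p = 0.196) without overlap. Nkx3-2, which acts in cartilage of the spine and jaw, differed by 1.06 (SE 0.35, adjusted p = 0.0988) over both densities and by 1.67 (SE 0.50, adjusted p = 0.110) at low density, and Nkx1-2 by -0.84 (SE 0.61, adjusted p = 0.507).

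Lhx6, a gene of tooth mesenchyme and forebrain interneurons, averaged 291 in MLO-Y4 high and 269.8 in MLO-Y4 low, against 859.7 in 2T3 C0 and 958 in 2T3 low, and ranged widely within groups (log2 -1.69, SE 0.89, adjusted p = 0.329). Lhx3, a pituitary gene, differed by -0.96 (SE 1.34, adjusted p = 0.764). Pitx1, the hindlimb identity gene, was detected on 3 of 6 MLO-Y4 arrays and on 3 of 6 2T3 arrays and averaged 24.96 in MLO-Y4 and 10.4 in 2T3 (adjusted p = 0.118). The eye and midbrain gene Pitx3 differed by 0.58 (SE 0.51, adjusted p = 0.596). Among 10 Pou genes, differences ran from -1.02 to 0.38, with 0.25 for the neural gene Pou3f2 and -0.25 for Pou6f1. Among 9 Pax genes they ran from -0.74 (Pax4, a pancreatic gene) to 0.50, with -0.47 for the B-cell gene Pax5. Cux1 differed by -1.20, Cux2 by -0.17, Gbx2 by -0.81, Irx3 by -0.56, Tlx1 by 0.36, Tlx2 by -0.12 and Msx3 by -0.21. None of these genes passed in any of the 6 comparisons of the main fit.

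Between the groups labelled low, 4 genes were called (2 higher, 2 lower in MLO-Y4, beside 3.94% of all spots). Between MLO-Y4 high and 2T3 C0, the denser cultures, 4 were called (1 higher, 3 lower, beside 3.36% of all spots). No measured density is given here, so the lines cannot be taken as matched in density. Leaving out 1 array gave 2 to 5 calls at low density, fewest without MLO-Y4 low replicate 1 or 3 or 2T3 low replicate 3. Without the 4 arrays numbered 1 there were 6 at low density and 2 in the denser cultures. Shares of all spots are not given for these fits with arrays left out. With all arrays, Six2, Dlx2 and Hoxc10 were called at both densities, Tgif1 at low density and Barx1 in the denser cultures. The next comparisons asked whether density moved homeobox genes within a line. In limma 0 of the 91 genes passed between MLO-Y4 high and low (0% of all spots), 0 between 2T3 C0 and low (0%) and 0 for the difference of these effects (0%). At an unadjusted p under 0.05 there were 0 in MLO-Y4 (beside 2.31% of spots), 5 in 2T3 (5.49%, beside 5.29%) and 2 for the difference (2.20%, beside 2.88%). These fits left out the replicate number, by which deviations of MLO-Y4 high and low arrays correlated at 0.625, 0.475 and 0.505. With the number as a block, 0 members passed between densities of either line.

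Barx1 came nearest to a density call. It averaged 58.3 in 2T3 C0 and 10.7 in 2T3 low without overlap (log2 2.45, SE 0.45, adjusted p = 0.408), and it passed with the floor at the 40th percentile (log2 1.90, adjusted p = 0.00702). The MLO-Y4 effect minus the 2T3 effect was -2.19 (SE 0.64, adjusted p = 1), with every MLO-Y4 reading below the limit. The Hox partner genes Pbx3 and Meis2 averaged 82.2 and 44.3 in 2T3 C0, against 27.9 and 16.3 in 2T3 low (adjusted p = 0.929 for each). Lhx5 averaged 7.49 in 2T3 C0 and 20.2 in 2T3 low, Pax2 6.08 in 2T3 C0 and 11.5 in 2T3 low, and Hoxd10 17.3 in 2T3 C0 and 41.7 in 2T3 low (adjusted p from 0.929 to 0.941).

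By density Six2 differed by 0.01 (SE 0.50, adjusted p = 1) in MLO-Y4 and by 0.40 (SE 0.50, adjusted p = 0.995) in 2T3. In MLO-Y4, Hoxa11 averaged 136 in high and 42.7 in low cultures without overlap (log2 1.67, SE 0.95, adjusted p = 1). The lowest high reading was 104.6 and the highest low reading 103.3, and MLO-Y4 low replicate 2, at 8.83, was below the limit. Cux2 averaged 17.0 in high and 6.08 in low cultures, Hoxd11 17.7 in high and 6.08 in low cultures, and Nkx3-2 10.97 in high and 21.5 in low cultures (adjusted p = 1 for each). Hoxd11 was detected in MLO-Y4 high on replicate 1 alone, at 92.0, beside 6.08 and 9.92 on replicates 2 and 3. Hoxc8 and Hoxb13 were below the limit on all MLO-Y4 arrays. For the difference of density effects, Pax5 gave 2.96 (SE 1.48, adjusted p = 1), Hoxa11 1.98 (SE 1.34, adjusted p = 1), Lhx5 1.97 (SE 0.85, adjusted p = 1), Pbx3 -1.52 (SE 0.70, adjusted p = 1) and Hoxc8 -1.34 (SE 0.65, adjusted p = 1). Pax5 read 422 on 2T3 low replicate 1, beside 30.3 and 42.2 on replicates 2 and 3.

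**Figure D5:**
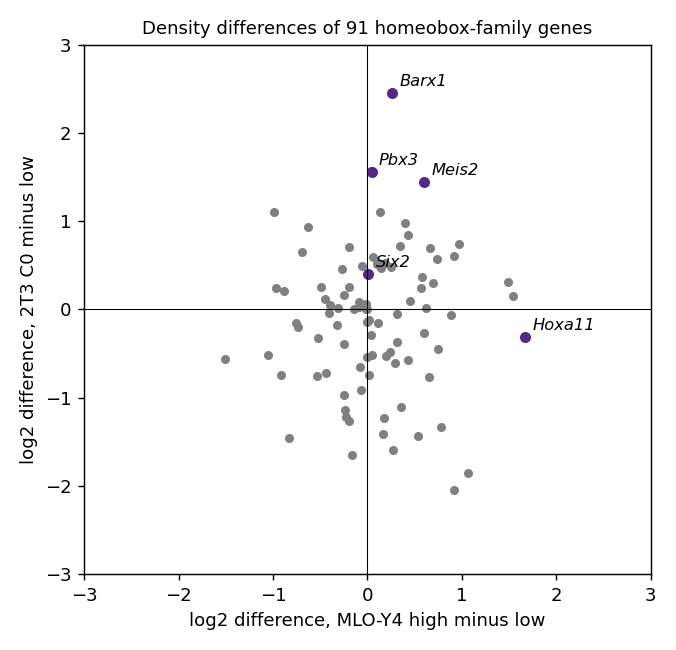
Log2 difference between densities for each of the 91 genes in MLO-Y4 (high minus low, x axis) and in 2T3 (C0 minus low, y axis). No gene passed on either axis, and Barx1 at 2.45 in 2T3 is the uppermost point.

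Genes around these families were counted from lists, in MLO-Y4 against 2T3. Of all spots, 5.83% were higher and 3.48% lower in this comparison. No list in this or the next paragraph was tested against these shares, so the counts cannot be read as particular to the lists. Of 38 other homeodomain genes 0 were higher and 1 lower, with a median of -0.09. The lower gene was Vax1, an eye and forebrain gene (log2 -1.37, SE 0.33, adjusted p = 0.0261 in limma). Of 9 genes known to act with or near Six2 and its relatives, 1 was higher and 0 lower, with a median of -0.77. The higher gene was Gdnf, a kidney and nerve growth factor gene (log2 2.05, SE 0.46, adjusted p = 0.0194). Of the Eya coactivator genes, none of which passed, Eya4 differed by -1.48, Eya3 by -1.20, Eya2 by -1.15 and Eya1 by 0.57. Among 32 limb and face patterning genes, 3 were higher and 0 lower, with a median of 0.32. They were the forkhead genes Foxf1 (log2 3.41, SE 0.42, adjusted p = 7.22e-04) and Foxc2 (log2 3.04, SE 0.47, adjusted p = 0.00289) and the cartilage factor gene Sox5, which was detected on 6 of 6 MLO-Y4 arrays and on 0 of 6 2T3 arrays (means 52.6 in MLO-Y4 and 7.62 in 2T3, adjusted p = 0.00151).

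Of 18 Polycomb and trithorax genes, whose products keep Hox clusters silent or active, 0 were higher and 1 was lower, the Polycomb cofactor gene Jarid2 (log2 -2.06, SE 0.48, adjusted p = 0.0227), with a median of -0.55. In the retinoic acid pathway, which regulates Hox genes in the embryo, 2 of 14 were higher and 1 was lower, with a median of 0.02. The synthesis gene Aldh1a2 (log2 3.56, SE 0.57, adjusted p = 0.00322) and the binding protein gene Crabp2 (log2 3.38, SE 0.48, adjusted p = 0.00161) rose, and Crabp1 fell (log2 -2.34, SE 0.53, adjusted p = 0.0194).

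The labelled cell types were set against marker lists. These lists were chosen with earlier results of these data known, so their counts are descriptions and no independent check of the labels. Beside them, 5.83% of all spots were higher in MLO-Y4 and 3.48% lower. Of 6 osteocyte markers 5 were higher in MLO-Y4 (Ackr3, Dstn, Pdpn, Capg and Cd44), with summed levels of 5735 to 8283 over MLO-Y4 arrays and 706 to 1643 over 2T3 arrays. The remaining marker of this list, Phex, was detected on no array. Of 9 osteoblast markers 0 were higher and 0 lower, with sums of 698 to 1181 over MLO-Y4 arrays and 788 to 1125 over 2T3 arrays. Single markers went both ways without a call, with log2 differences of 2.08 for Alpl, 1.97 for Col5a2, -2.02 for Bglap and -1.13 for Omd. Among other cell types, Col10a1 was the 1 of 6 chondrocyte spots called higher (sums 168 to 702 over MLO-Y4 arrays and 92.8 to 295 over 2T3 arrays), and Pparg the 1 of 3 adipocyte spots called lower (sums 20.5 to 65.3 over MLO-Y4 arrays and 49.6 to 375 over 2T3 arrays). Of 6 macrophage and osteoclast spots, Csf1r was higher and Tyrobp lower (sums 207 to 518 over MLO-Y4 arrays and 222 to 513 over 2T3 arrays). Csf1r read near the floor, with means of 13.7 in MLO-Y4 and 6.86 in 2T3. It was detected on 2 of 6 MLO-Y4 arrays and on 1 of 6 2T3 arrays. None of 4 muscle, 5 endothelial or 6 neural spots passed. The part of other cell types in the homeobox results was not tested.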

How the data were processed

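The deposited values are whole-number spot intensities on a linear scale, 1 column for each of 12 arrays. Some lie below 0, so a background was subtracted before deposit. Per the labels no software is named, and the background method is not given in the sources used here. Of 5030 spots, 4633 carry 1 gene symbol in the platform annotation (4624 updated, 9 kept), 5 carry several and 392 are unnamed here. The members and gene lists were chosen with earlier results of these data known.

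Arrays were quantile normalized and floored at the 25th percentile, since medians lie near background. Limma 3.58.1 in R 4.3.3 fitted 4 group means over 12 arrays (lmFit and eBayes, 8 residual degrees of freedom, two-sided). Adjusted p is Benjamini-Hochberg over all spots within each of 6 comparisons, with a threshold of 0.05. The fit was tested on simulated data. Where no array of a group detected a gene, the fold is "at least", taken against the higher of the gene's own value and the lowest detected normalized value, per array. The number of arrays limits the precision.

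Named with values were Six2, Barx1, every called member, the 6 brightest members, up to 2 of the brightest in each family, and in each comparison the 3 smallest p-values in each direction; the promoters shown and other genes near the threshold were picked after their values were seen. Pairing was tested as the correlation of same-numbered arrays' deviations from their group means. It was 0.625, 0.475 and 0.505 for numbers 1, 2 and 3 in MLO-Y4 high and low, and 0.526, 0.311 and 0.368 in MLO-Y4 high and 2T3 C0, so the numbers pair these arrays in the data, though the labels do not say what a number marks. Alternatives were other scalings, floors, logs and filters, array weights, an intensity trend, the replicate block and each array left out.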

Additional observations from a re-analysis of the deposited data

How the results depend on the processing

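Over both densities, Six2 (-5.45 to -4.59), Hoxc10 (3.99 to 5.39), Dlx2 (-2.37 to -1.43) and Tgif1 (1.47 to 2.55, all log2) kept their direction and call in all 21 other settings. Barx1 kept its call in 20, Hoxa5 in 15, Alx4 in 13 and Meis2 in 10, and none of these 8 changed direction. Without 1 array, 5 to 9 members were called over both densities (fewest without 2T3 C0 replicate 3 and without 2T3 low replicate 3), 2 to 5 at low density (fewest without MLO-Y4 low replicate 1 or 3 and without 2T3 low replicate 3), 3 to 5 in the denser cultures and 0 between densities. At low density the count was 2 with a generalized log, 2 with a filter on dim spots and 2 with an intensity trend and robust prior. Without the 4 arrays numbered 1, a setting chosen after seeing the data, 6 were called at low density, where Hoxc10 and Dlx2 lost their calls and Dlx4, Hoxb5, Hoxc4 and Nkx3-2 gained one, and 2 in the denser cultures (Six2 and Dlx4). Dlx2 lost its calls at both densities with equal medians and with a generalized log, and at low density also with the filter and the trend. Tgif1 lost its low-density call with detected-spot scaling, the generalized log, the filter and the trend. Between 2T3 C0 and low, 1 gene passed with the floor at the 40th percentile. Shares of all spots in these settings are not given here, so these counts cannot be read as particular to the homeobox genes. The causes were not tested.

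With the replicate number as a block, 11 members were called over both densities. There were 5 at low density, 5 in the denser cultures and 0 between densities of either line. No gene called without the block lost its call. The share of all spots called with the block is not given here, so the higher counts cannot be read as particular to these genes. The genes added over both densities were Dlx4 (adjusted p = 0.0158 in limma), Hoxd8 (0.0309) and Nkx2-6 (0.00674). Between 2T3 C0 and low the same-numbered deviations correlated at 0.0388, 0.0645 and 0.152, and 6 of 6 arrays correlated best with their own number. Between MLO-Y4 low and 2T3 low they correlated at 0.00284, -0.111 and 0.131, and 2 of 6 did so.

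Members detected on all arrays of a group numbered 14 in MLO-Y4 low and 25 in 2T3 low with the limit at 2 times the lowest value. Without 1 array they ran from 18 to 47 in MLO-Y4 high, 22 to 43 in MLO-Y4 low, 32 to 53 in 2T3 C0 and 40 to 49 in 2T3 low; the highest count in the first 3 groups was without replicate 1. Signal near background limits Barx1, Meis2 and Six2 in MLO-Y4, Hoxc10 in 2T3 and Hoxd8 in both.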
